A study of Homo sapiens with 9 samples.

Results

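The metallothionein system of human spinal cord organoids (SCOs) was followed through 9 genes, taken by name from the deposited count tables: the metallothioneins MT1E, MT1F, MT1G, MT1M, MT1X, MT2A and MT3, the transcription factor MTF1 and the zinc exporter SLC30A1. These 9 are among 31589 genes with a row in at least 1 of the 3 tables and among 26871 with a row in all 3. SCOs were grown from the induced pluripotent stem cell line WTC, of which the labels give the genotype as WT and the study describes clones that carry a SOX10 reporter. Bulk RNA sequencing covered 3 libraries each of SCOs kept in vehicle (labelled FGF), exposed to VPA (valproic acid, an inhibitor of histone deacetylases) or exposed to VPA + Rapamycin (VPA with an inhibitor of mTOR added). All groups shared the line and the bFGF medium, and no library received Rapamycin alone. The exposure lasted 96 h by the labels, which name no concentration. The text of the study has a shorter exposure and more than a single concentration of VPA. Each library is described as a pool of SCOs from a single clone, and no label ties a replicate number to a clone. Whole SCOs were sequenced, so fewer cells of a type and less RNA per cell cannot be told apart.

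Metallothioneins are small proteins very rich in cysteine, which bind zinc and copper and can take up other heavy metals. Free zinc is sensed by MTF1, a zinc finger protein that binds metal response elements in the promoters of metallothionein genes and of SLC30A1. SLC30A1 (also called ZnT1) carries zinc out of the cell across the plasma membrane. Several metallothionein genes also respond to glucocorticoids and oxidative stress, and MT3 is best known from the nervous system, where it was described as a growth inhibitory factor. The comparisons ask whether these genes differ between SCOs in VPA and in vehicle, and whether Rapamycin added to VPA changes them.

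The libraries held between 15290436 and 17417478 counted reads, with medians of 16702223 for vehicle, 16738376 for VPA and 16689541 for VPA + Rapamycin. SOX10, a marker of neural crest, fell from 281 ± 52.9 scaled read counts (mean ± SD, n = 3) in vehicle to 7.86 ± 2.68 in VPA. The summed level of 8 neural progenitor markers was at 33047 to 38398 scaled read counts in vehicle, 38729 to 42202 in VPA and 34787 to 38066 in VPA + Rapamycin. All 8 of 8 had reads in each condition. VPA raised 1 of these, HES5 (log2 fold change 0.95), and lowered 1, NKX6-1 (-1.19), with a median of -0.00. The summed level of 10 mesenchyme markers ranged from 2299 to 4053 in vehicle, from 5333 to 6706 in VPA and from 3156 to 4144 in VPA + Rapamycin, with none of the 10 at 0 over a condition. COL1A1 made up most of this sum, at 2059 ± 1103 scaled read counts in vehicle and 4463 ± 687 in VPA, and COL1A1 and THY1 were the 2 of 9 tested markers that VPA raised, with 0 lowered. PDGFRA, PRRX1 and COL3A1 had log2 fold changes of -1.06, -0.43 and -0.49 that did not pass the test, so the list did not move as a whole. That of 7 HOX genes of the spinal cord ranged from 11514 to 20723, from 8318 to 11219 and from 9730 to 13150 in the same order. HOXB9 made up most of this sum, at 12599 ± 4019 scaled read counts in vehicle and 7820 ± 1298 in VPA. VPA lowered 6 of the 7 and raised 0 (median log2 fold change -1.05), and VPA + Rapamycin against vehicle lowered 4 and raised 0 (median -0.61). Of 8 neuron markers VPA lowered 5 and raised 0 (median log2 fold change -0.61), and VPA + Rapamycin against vehicle lowered 3 and raised 0 (median -0.46), with summed levels of 23446 to 39827 in vehicle, 20865 to 22223 in VPA and 22468 to 23494 in VPA + Rapamycin. Over all genes tested, VPA raised 16.4% and lowered 15.7%, and VPA + Rapamycin against vehicle raised 9.81% and lowered 9.22%. No test set the marker lists apart from other genes. These marker levels moved along with VPA, and their part in the metallothionein results below was not tested.

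The 7 metallothioneins lie in a single cluster on the long arm of chromosome 16, from MT3 to MT1X, at chr16:56589074-56684196 (GRCh38, 95.1 kb). MT2A lies at chr16:56608199-56609497, MT1E at chr16:56625475-56627112, MT1F at chr16:56657694-56660698, MT1G at chr16:56666731-56668065 and MT1X at chr16:56682424-56684196. MT1G is on the minus strand, and the other 6 are on the plus strand. MTF1 (chr1:37809567-37859620) and SLC30A1 (chr1:211571568-211578742) are on the minus strand of chromosome 1. None of the 9 genes overlaps another gene of the tables.

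Upstream sequences were found for 4 of the 9 genes (MT1X, MT2A, MTF1 and SLC30A1) in RefSeq promoter windows of GRCh38.p14. The 250 bases before each transcript start were searched on both strands for the core of the metal response element, spelt TGCACNC or TGCGCNC, with overlapping matches allowed. MT2A held 7 matches, MT1X 4, SLC30A1 1 and MTF1 0. Of 35116 windows of the same length, 24.8% held at least 1 match, 0.370% held at least 4 and 0.0313% held at least 7. MT2A and MT1X are shown because they held the most matches and moved in opposite directions with VPA. The 250 bases of MT2A (plus strand, chr16:56608334-56608583) lie within the first exon that GENCODE 29 gives this gene, so the 7 matches are shown on their own, with up to 3 bases on each side and the core in capitals. They read along the strand of the gene, and are named by the distance of their first base from the RefSeq start.
MT2A, 246 bases before the start: cgcTGCACCCagc
MT2A, 168 bases before the start, core on the opposite strand: cccGTGTGCAgag
MT2A, 153 bases before the start: gggTGCGCCCggc
MT2A, 139 bases before the start: cagTGCGCGCggc
MT2A, 88 bases before the start, core on the opposite strand: ggcGTGTGCAggc
MT2A, 54 bases before the start: tttTGCACTCgtc
MT2A, 8 bases before the start: cgcTGCACTCc
For MT1X (plus strand, chr16:56682220-56682423) and SLC30A1 (minus strand, chr1:211579162-211579411), the exporter that rose with MT2A, the bases upstream of every annotated exon are shown, again 5′ to 3′ on the strand of the gene with the cores in capitals.
MT1X: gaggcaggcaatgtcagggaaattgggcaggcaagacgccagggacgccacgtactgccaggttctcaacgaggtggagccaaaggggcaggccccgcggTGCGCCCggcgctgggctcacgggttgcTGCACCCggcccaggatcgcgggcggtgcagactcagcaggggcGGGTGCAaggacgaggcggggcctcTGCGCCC
SLC30A1: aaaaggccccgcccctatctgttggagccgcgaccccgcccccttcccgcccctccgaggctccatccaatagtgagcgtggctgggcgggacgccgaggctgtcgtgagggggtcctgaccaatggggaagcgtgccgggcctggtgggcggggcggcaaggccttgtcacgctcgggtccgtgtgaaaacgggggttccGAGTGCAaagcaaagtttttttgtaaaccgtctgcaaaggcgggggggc
The RefSeq start of SLC30A1 lies upstream of the start that the tables give this gene. Its single core began 49 bases before the RefSeq start, on the opposite strand. A match describes the letters of a window and does not show that MTF1 binds there.

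**Figure D1:**
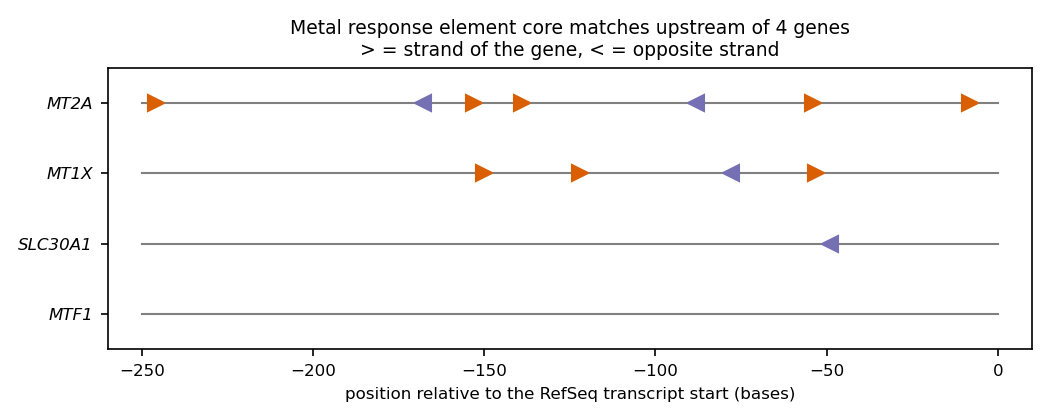
Position of each metal response element core in the 250 bases before the RefSeq start of 4 genes (horizontal axis, bases from the start), with arrows that point along the strand of the match. MT2A held 7 matches, MT1X 4, SLC30A1 1 and MTF1 0.

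Compared per kb of gene length, on counts scaled for library size, MT2A stood highest in vehicle at 122 ± 60.9 scaled read counts per kb (mean ± SD, n = 3), followed by SLC30A1 at 102 ± 16.8. The SD of MT2A spanned the level of SLC30A1, so their order in vehicle was not resolved. MT1G (54.6 ± 34.4), MTF1 (49.2 ± 5.18) and MT1X (46.9 ± 5.60) followed and did not differ from each other beyond their spread, and MT1F was below at 27.5 ± 4.59. MT3 was close to the floor of detection at 5.36 ± 4.61, and MT1E and MT1M had no read in vehicle. In VPA the order was MT2A (256 ± 26.4), SLC30A1 (163 ± 3.996), MTF1 (56.3 ± 5.45), MT1G (37.3 ± 8.69), MT1F (30.7 ± 10.5) and MT1X (22.6 ± 3.07), so that MT1X passed to the lowest level of the genes with appreciable counts. In VPA the libraries of MT1F overlapped those of MT1G and of MT1X, while each library was higher for MT1G (28.9 to 46.3) than any for MT1X (19.1 to 24.7). In VPA + Rapamycin, MT1G stood at 103 ± 24.1 scaled read counts per kb, next behind MT2A at 266 ± 43.6 and SLC30A1 at 182 ± 17.97.

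**Figure D2:**
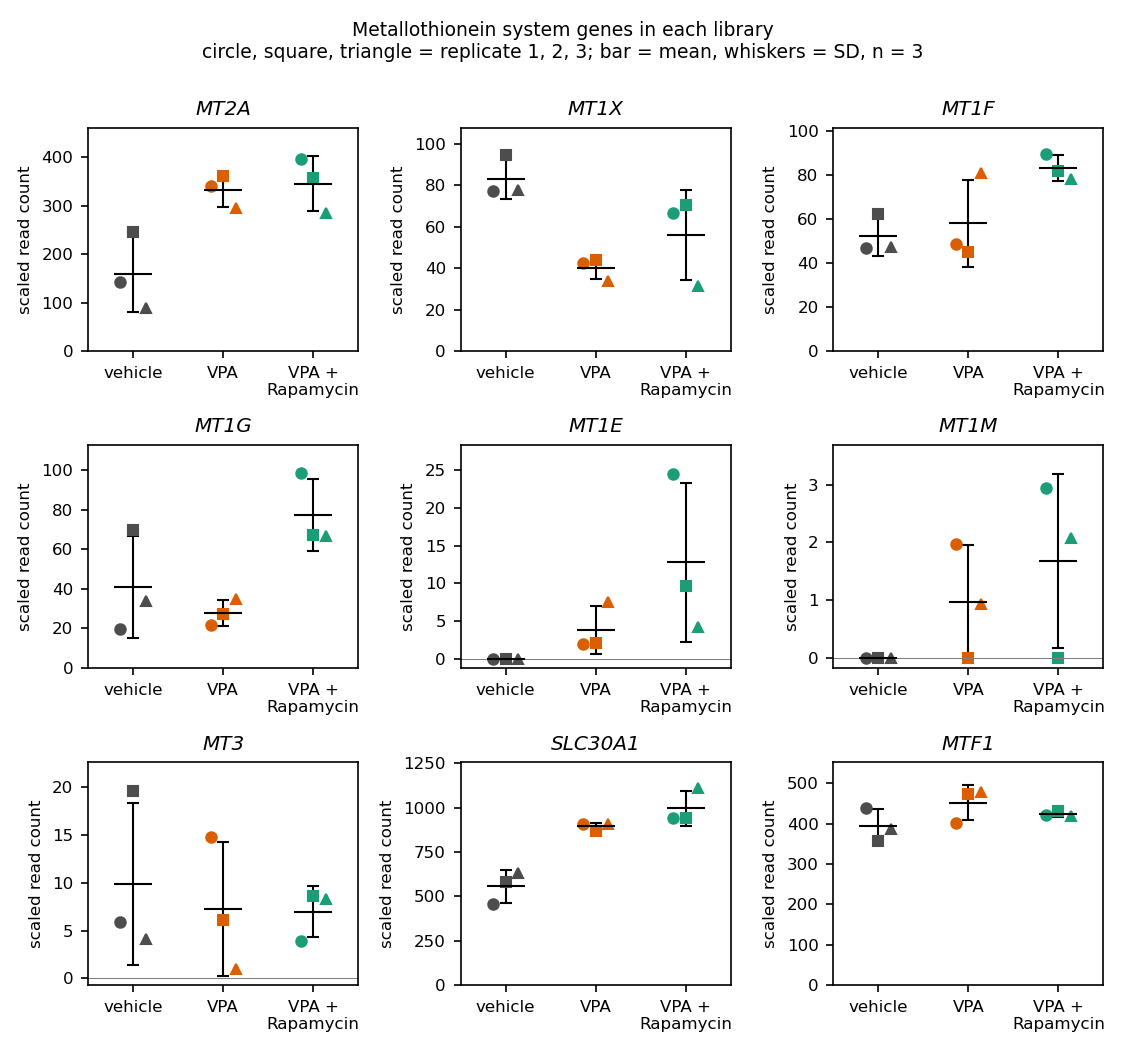
Scaled read count of the 9 genes in each library (vertical axis, 1 panel per gene), by condition. Symbols mark replicates 1 to 3, and bars and whiskers give mean and SD (n = 3). MT2A and SLC30A1 lie higher in both VPA conditions than in vehicle, MT1X lies lower in VPA than in vehicle, and MT1E has no read in vehicle.

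VPA raised MT2A and SLC30A1 and lowered MT1X, whereas MT1F, MT1G and MTF1 did not pass the test. Of the 9 genes, 6 had enough reads to be tested, of which 2 were raised and 1 was lowered at an adjusted p of at most 0.05 (edgeR's quasi-likelihood test). Of the 17360 genes tested, 16.4% were raised and 15.7% were lowered. The median log2 fold change of the 4 tested metallothioneins was -0.20, against -0.00 over all genes tested, and the 2 metallothioneins that passed the test moved in opposite directions.

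MT2A is the metallothionein that most tissues express strongly. It had 146, 225 and 87 read counts in vehicle replicates 1, 2 and 3, and 345, 355 and 314 in VPA. Each VPA library was above each vehicle library, and vehicle replicate 2 stood above the other vehicle libraries. The log2 fold change was 1.06 (SE 0.28), from 159 ± 79.1 to 332 ± 34.3 scaled read counts (adjusted p = 0.0155, edgeR). Without VPA replicate 1 the adjusted p was 0.0517 and without VPA replicate 2 it was 0.0607, so the call depended on these libraries, with log2 fold changes of 1.05 and 1.00.

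MT1X, an MT1 isoform at the distal end of the cluster, had 79, 87 and 76 read counts in vehicle and 43, 43 and 36 in VPA. The groups did not overlap and the libraries within each were close to each other. The log2 fold change was -1.06 (SE 0.26), from 83.2 ± 9.92 to 40.0 ± 5.44 scaled read counts (adjusted p = 0.0103, edgeR). MT1X thus fell in the same libraries in which MT2A rose. MT2A had 1.85, 2.59 and 1.14 reads for each read of MT1X in vehicle, and 8.02, 8.26 and 8.72 in VPA. This ratio was chosen after the values were seen and is free of any scaling between libraries, and the VPA libraries lay within a narrower range than those in vehicle.

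SLC30A1 had 465, 536 and 619 read counts in vehicle and 920, 853 and 966 in VPA. All VPA libraries were above all vehicle libraries. The log2 fold change was 0.67 (SE 0.14), from 557 ± 92.0 to 894 ± 21.9 scaled read counts (adjusted p = 0.00393, edgeR). MTF1, the factor upstream of SLC30A1 and the metallothioneins, had 450, 329 and 378 read counts in vehicle and 407, 466 and 511 in VPA. These groups overlapped, with a log2 fold change of 0.18 (SE 0.14, adjusted p = 0.333, edgeR).

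MT1F had 48, 57 and 46 read counts in vehicle and 49, 44 and 86 in VPA, of which VPA replicate 3 alone was above vehicle. The log2 fold change was 0.15 (SE 0.31, adjusted p = 0.746, edgeR). MT1G had 20, 64 and 33 read counts in vehicle and 22, 27 and 37 in VPA. Vehicle replicate 2 was the highest, as it was for MT2A, and the groups overlapped, with a log2 fold change of -0.55 (SE 0.46, adjusted p = 0.388, edgeR). Leaving out vehicle replicate 2 turned the estimate for MT1G to 0.06, and leaving out VPA replicate 3 turned that for MT1F to -0.16.

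Rapamycin added to VPA raised MT1G, and no other of the 6 tested genes passed the test. Thus 1 gene was raised and 0 were lowered, while 3.01% of the 17317 genes tested were raised and 3.73% were lowered. At an unadjusted p under 0.05 the count was 1 as well. The median log2 fold change of the 4 tested metallothioneins was 0.51, against 0.00 over all genes tested.

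MT1G had 100, 70 and 64 read counts in VPA + Rapamycin against the 22, 27 and 37 in VPA. Each library with Rapamycin was above each VPA library, and also above vehicle replicates 1 and 3. Vehicle replicate 2 lay, after scaling, between replicate 1 and the other libraries with Rapamycin. The log2 fold change over VPA was 1.46 (SE 0.29), from 28.0 ± 6.52 to 77.4 ± 18.1 scaled read counts (adjusted p = 0.00541, edgeR). When all 9 libraries entered a single fit, and so shared an estimate of the spread with the vehicle libraries, the adjusted p was 0.115 at the same log2 fold change of 1.46. Over vehicle the log2 fold change was 0.92 (SE 0.41, adjusted p = 0.141, edgeR), and without vehicle replicate 2 it was 1.52 with an adjusted p of 0.0335.

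MT1F had 91, 85 and 75 read counts in VPA + Rapamycin. The log2 fold change was 0.52 over VPA (SE 0.26, adjusted p = 0.254, edgeR) and 0.67 over vehicle (SE 0.25, adjusted p = 0.0814, edgeR). All 3 libraries were above all vehicle libraries, while VPA replicate 3 lay among them. MT1X had 68, 73 and 30 read counts, which split into a pair below vehicle and above VPA and a single library, replicate 3, at the lowest count of all 9. Its log2 fold change over VPA was 0.49 (SE 0.32, adjusted p = 0.399, edgeR).

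MT2A had 403, 371 and 273 read counts in VPA + Rapamycin. The range enclosed that of VPA, and the log2 fold change over VPA was 0.06 (SE 0.13, adjusted p = 0.837, edgeR). SLC30A1 had 957, 978 and 1067 read counts. After scaling, all 3 libraries were above all VPA libraries, by a log2 fold change of 0.16 that did not pass the test (SE 0.09, adjusted p = 0.308, edgeR). MTF1 had 429, 449 and 402 read counts and a log2 fold change over VPA of -0.09 (SE 0.11, adjusted p = 0.678, edgeR).

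Against vehicle, VPA + Rapamycin raised MT2A and SLC30A1, and 0 of the tested genes were lowered. Of the 17383 genes tested, 9.81% were raised and 9.22% were lowered. The median log2 fold change of the 4 metallothioneins was 0.79, against -0.00 over all genes tested. This comparison shares its libraries with the other 2, so it is no independent evidence for either. MT2A had a log2 fold change of 1.12 (SE 0.30, adjusted p = 0.0242, edgeR) and SLC30A1 one of 0.83 (SE 0.15, adjusted p = 0.00401, edgeR). For MT2A the adjusted p was 0.102 without VPA + Rapamycin replicate 1 and 0.0789 without replicate 2. MT1X, lowered by VPA alone, was at -0.57 (SE 0.31, adjusted p = 0.225, edgeR), with all 3 libraries below all vehicle libraries. MTF1 was at 0.09 (SE 0.13, adjusted p = 0.663, edgeR).

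**Figure D3:**
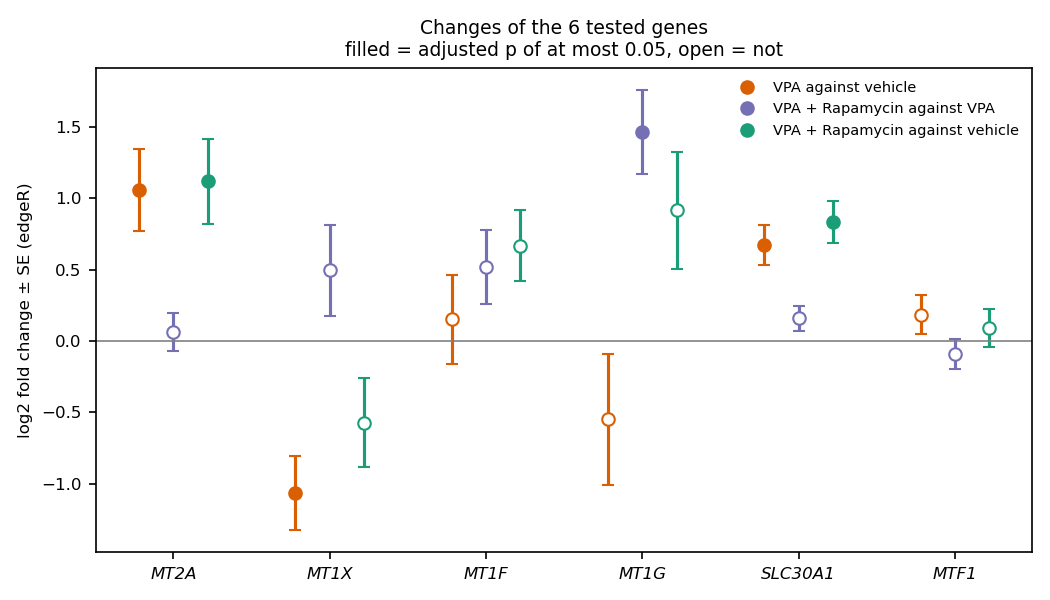
Log2 fold change ± SE (vertical axis) of the 6 tested genes in each of the 3 comparisons, with filled symbols where the adjusted p is at most 0.05. With VPA, MT2A and MT1X moved by 1.06 and -1.06, and MT1G moved by 1.46 between VPA and VPA + Rapamycin.

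With all libraries of a pair, MT1E, MT1M and MT3 had too few reads for the test in all 3 comparisons. MT1E had no read in the 3 vehicle libraries, 2, 2 and 8 read counts with VPA, and 25, 10 and 4 with VPA + Rapamycin. It was thus detected in each of the 6 libraries with VPA. Set against a floor of 3 counts over the vehicle libraries, the summed MT1E reads, scaled for library size, were 3.82-fold higher in VPA and 12.6-fold higher in VPA + Rapamycin. These ratios take no account of the spread between libraries. Single libraries carried much of this, with 8 of the 12 reads in VPA replicate 3 and 25 of the 39 in VPA + Rapamycin replicate 1. Without these libraries the ratios to the floor were 1.95-fold and 6.81-fold, a check chosen after the values were seen. When genes with low counts were kept, the adjusted p for MT1E was 0.0949 in VPA against vehicle, 0.000413 in VPA + Rapamycin against vehicle and 0.220 in VPA + Rapamycin against VPA (edgeR).

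MT1M, a further MT1 isoform, had no read in vehicle, 2, 0 and 1 in VPA and 3, 0 and 2 in VPA + Rapamycin. The pseudogene MT1L and the gene MT1A, which flank MT1E and MT1M between MT2A and MT1F, also had no read in vehicle. MT1L had 3 reads in VPA and 6 in VPA + Rapamycin, and MT1A had 3 and 1. These counts are at the floor of 3 counts or not far above it, so no change was detectable at this depth for MT1M, MT1L and MT1A. MT1H, next to MT1G, had 6, 6 and 2 read counts in vehicle, 0, 2 and 0 in VPA and 8, 0 and 0 in VPA + Rapamycin. MT3, the neural metallothionein, had 6, 18 and 4 read counts in vehicle, 15, 6 and 1 with VPA and 4, 9 and 8 with VPA + Rapamycin. Its groups overlapped throughout.

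Taken as a sum, the 7 metallothioneins gave 292, 491 and 251 scaled read counts in vehicle replicates 1 to 3, 472, 486 and 453 in VPA and 682, 594 and 475 in VPA + Rapamycin. Vehicle replicate 2 stood above all VPA libraries, so the sums in vehicle and VPA overlapped, and so did those of VPA and VPA + Rapamycin. The sum made up 0.00147% to 0.00413% of the counted reads of a library. Its composition differed more clearly than its size. MT2A gave 44.7% ± 8.10 of the metallothionein reads in vehicle (SD, n = 3), 70.5% ± 4.92 in VPA and 59.3% ± 1.09 in VPA + Rapamycin, and the 3 ranges did not overlap. The share of MT1X was 25.5% ± 5.85, 8.49% ± 0.896 and 9.40% ± 2.64, and that of MT1G was 11.4% ± 4.13, 5.97% ± 1.55 and 13.3% ± 1.68. The share of MT1F stayed within overlapping ranges, at 15.8% ± 3.04, 12.4% ± 4.69 and 14.4% ± 1.77. In VPA + Rapamycin, MT2A had 5.93, 5.08 and 9.1 reads for each read of MT1X, all above the 1.14 to 2.59 of vehicle.

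**Figure D4:**
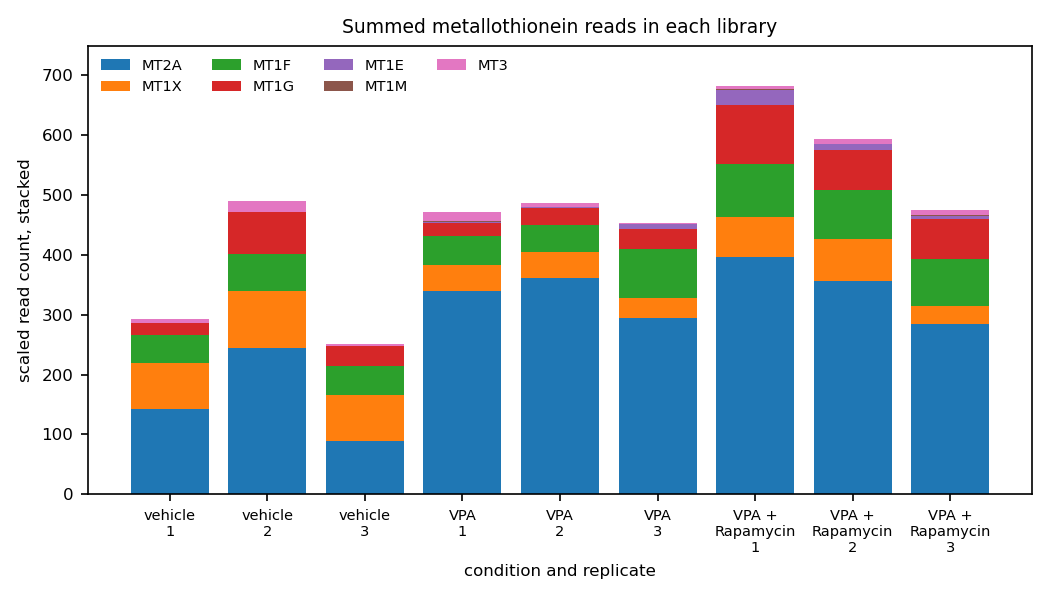
Scaled read counts of the 7 metallothioneins, stacked (vertical axis) for each library (horizontal axis, condition and replicate). The MT2A part grows from 44.7% of the reads in vehicle to 70.5% in VPA, while the sum of vehicle replicate 2 (491) lies above those of VPA (453 to 486).

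Metallothionein genes are close relatives, so their reads can be assigned to more than 1 gene. In the GENCODE 29 transcripts, 16.5% of the 50-base windows of MT1G and 18.3% of those of MT1X also occurred in a transcript of another gene, as did 9.87% for MT1M, 7.10% for MT1E, 3.02% for MT2A, 1.22% for MT1F and 0 for MT3. For windows of 100 bases this fell to 0 for all but MT1X, with 11.3% shared with AC026461.1. The read length and the treatment of reads with several matches are not given in the sources used here, so the effect of shared reads on the counts was not tested.

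Zinc transporters other than SLC30A1 also moved with VPA. The SLC30 proteins carry zinc out of the cytosol, into vesicles or out of the cell. Of 10 listed genes (9 SLC30 genes and TMEM163, a vesicular zinc transporter), 8 were tested, and VPA raised 2 and lowered 0, with a median log2 fold change of 0.17. DESeq2, or edgeR with low counts kept, raised 4. Over all genes tested, VPA raised 16.4%, Rapamycin added to VPA lowered 3.73%, and VPA + Rapamycin against vehicle raised 9.81%. SLC30A10, which is best known as a manganese exporter, went from 60.7 ± 11.1 to 148 ± 10.4 scaled read counts (log2 fold change 1.27, adjusted p = 0.00154, edgeR). It was lowered again between VPA and VPA + Rapamycin, to 83.5 ± 13.9 (log2 fold change -0.82, adjusted p = 0.0150, edgeR), the 1 gene of this list that passed in that comparison, where the median was -0.08, and its call there was lost without VPA replicate 2 or VPA + Rapamycin replicate 3. SLC30A3, which loads zinc into synaptic vesicles, went from 54.2 ± 10.8 to 136 ± 28.99 with VPA (log2 fold change 1.31, adjusted p = 0.00297, edgeR) and remained at 119 ± 11.05 in VPA + Rapamycin, 1.13 on the log2 scale above vehicle (adjusted p = 0.00924, edgeR), the 1 raised gene of the list in that comparison (median 0.11).

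The SLC39 proteins bring zinc into the cytosol. Of 14 listed genes, 11 were tested with VPA, of which 4 were raised and 2 were lowered, with a median log2 fold change of 0.14. The count lowered was 1 without VPA replicate 3 or with at least 10 counts asked of every library. SLC39A14 and SLC39A8, which also carry iron and manganese, were raised by log2 fold changes of 0.67 (adjusted p = 0.000992) and 0.94 (adjusted p = 0.00144), and SLC39A11 by 1.02 (adjusted p = 0.00331, edgeR for all). SLC39A4, the importer of the gut, was lowered from 29.8 ± 11.7 to 5.78 ± 3.96 scaled read counts (adjusted p = 0.00929), and SLC39A10 from 3109 ± 478 to 2173 ± 279 (adjusted p = 0.0123, edgeR for both). Between VPA and VPA + Rapamycin, 10 were tested, and SLC39A6 was raised (log2 fold change 0.32, adjusted p = 0.0147) and SLC39A14 was lowered (log2 fold change -0.27, adjusted p = 0.0324, edgeR for both), with a median of 0.06. With all 9 libraries in a single fit, 0 genes of the SLC30 and SLC39 lists passed in this comparison. Without VPA replicate 3 or VPA + Rapamycin replicate 3 no SLC39 gene was raised, and 0 were lowered in each fit that left out a library, save the fit without VPA + Rapamycin replicate 1. Against vehicle, VPA + Rapamycin raised 5 of 11 and lowered 0, with a median of 0.27, and those with the smallest adjusted p were SLC39A8 (0.81), SLC39A3 (0.58) and SLC39A14 (0.40 on the log2 scale). This count was 1 without vehicle replicate 2 or VPA + Rapamycin replicate 1 or 2, and 2 without VPA + Rapamycin replicate 3, and DESeq2, low counts kept and the single fit of all 9 libraries each lowered 1. Over all genes tested, VPA raised 16.4% and lowered 15.7%, and Rapamycin added to VPA raised 3.01% and lowered 3.73%. Against vehicle, VPA + Rapamycin raised 9.81% and lowered 9.22% of all genes tested. No test set these lists, or those that follow, apart from other genes.

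**Figure D5:**
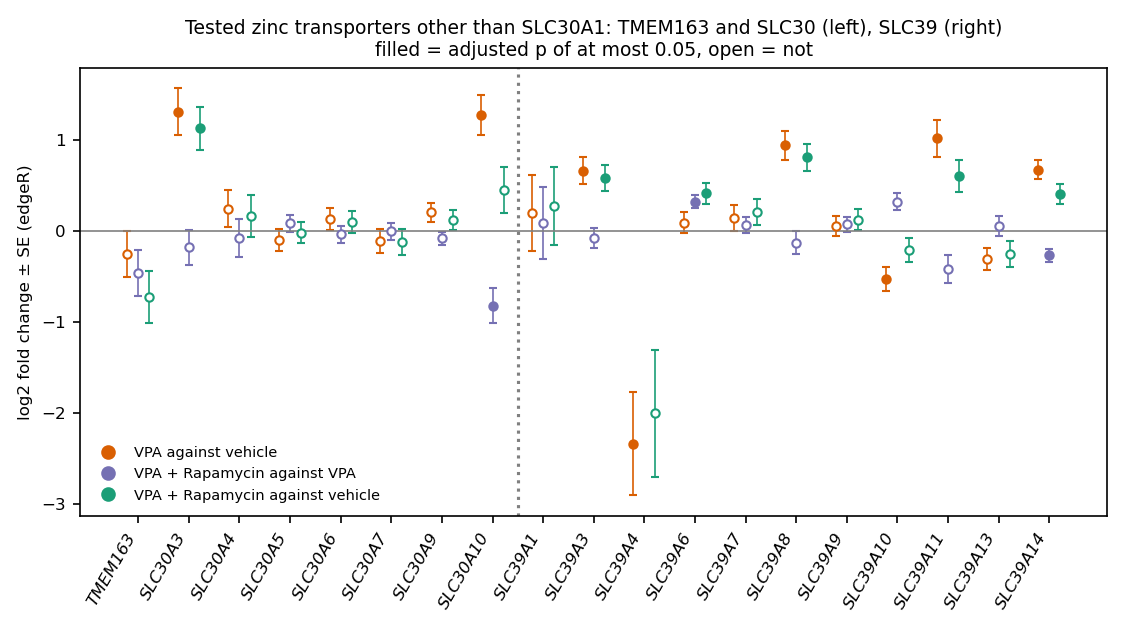
Log2 fold change ± SE (vertical axis) of the tested zinc transporters other than SLC30A1, with TMEM163 and the SLC30 genes on the left and the SLC39 genes on the right, in each of the 3 comparisons. Filled symbols have an adjusted p of at most 0.05, as SLC30A10 does with VPA (1.27) and again, in the opposite direction, with Rapamycin added (-0.82).

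Copper is the other physiological metal of metallothioneins. Of 18 genes for copper handling 16 were tested, and VPA raised 5 and lowered 0, with a median log2 fold change of 0.29, where 16.4% of all genes tested were raised. The count raised was 2 without vehicle replicate 2 or VPA replicate 2 and 3 without VPA replicate 1 or 3, and DESeq2, low counts kept and the single fit of all 9 libraries each lowered 1. STEAP3, a metalloreductase, went from 16.7 ± 8.15 to 66.3 ± 5.38 scaled read counts (log2 fold change 1.98, adjusted p = 0.00239), and the superoxide dismutases SOD1 (0.40, adjusted p = 0.0100) and SOD3 (1.62, adjusted p = 0.0121, edgeR for all) were raised as well. Rapamycin added to VPA raised 0 and lowered 1, SOD3 (log2 fold change -0.97, adjusted p = 0.0490, edgeR), with a median of -0.12, and with DESeq2, upper-quartile normalization or all 9 libraries in a single fit the count was 0, as it was without any 1 of the VPA libraries or without VPA + Rapamycin replicate 2 or 3. Against vehicle, VPA + Rapamycin raised 1, STEAP3 (log2 fold change 1.54, adjusted p = 0.0199, edgeR), and lowered 0, with a median of 0.17, and 0 were raised when any 1 of the VPA + Rapamycin libraries was left out. Over all genes tested, 3.73% were lowered when Rapamycin was added to VPA, and 9.81% were raised in VPA + Rapamycin against vehicle.

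Of 21 genes of the oxidative stress response that depends on the factor NRF2, all were tested with VPA, 6 were raised and 0 were lowered, with a median log2 fold change of 0.25, where 16.4% of all genes tested were raised. The smallest adjusted p belonged to TALDO1, an enzyme of the pentose phosphate pathway (log2 fold change 0.68, adjusted p = 0.000647), HMOX1, which breaks down haem (1.95, adjusted p = 0.00113), and TXN, a thioredoxin (0.59, adjusted p = 0.00270, edgeR for all). Rapamycin added to VPA raised 0 and lowered 4, with a median of -0.17, where 3.73% of all genes tested were lowered. Among these were NFE2L2, which encodes NRF2 itself (log2 fold change -0.51, adjusted p = 0.00744), the cystine carrier SLC7A11 (-1.34, adjusted p = 0.00999) and glutathione reductase GSR (-0.33, adjusted p = 0.0252, edgeR for all), and the count was 0 with all 9 libraries in a single fit, 1 without VPA replicate 1, and 2 without VPA replicate 2, VPA replicate 3 or VPA + Rapamycin replicate 3. Against vehicle, VPA + Rapamycin raised 4 of 20 and lowered 0, with a median of -0.03, where 9.81% of all genes tested were raised. The count raised was 1 without vehicle replicate 2 or VPA + Rapamycin replicate 1 or 3, and 2 without VPA + Rapamycin replicate 2.

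Of 10 glucocorticoid-responsive genes, VPA raised 5 and lowered 0, with a median log2 fold change of 0.43, where 16.4% of all genes tested were raised. The count raised was 3 without vehicle replicate 2, VPA replicate 1 or VPA replicate 2, and the count lowered was 1 in the single fit of all 9 libraries and without vehicle replicate 1, and 2 without vehicle replicate 3. The receptor gene itself, NR3C1, went from 89.2 ± 20.7 to 268 ± 45.5 scaled read counts (log2 fold change 1.57, adjusted p = 0.000425, edgeR). FKBP5, a co-chaperone of the receptor, was raised by 0.67 (adjusted p = 0.00287) and KLF9 by 1.00 (adjusted p = 0.00511, edgeR for both). With VPA, TSC22D3, PER1 and ERRFI1 had log2 fold changes of -0.11, -0.19 and -0.33 that did not pass the test. DUSP1 (0.20) and ZBTB16 (0.18) did not pass either. Between VPA and VPA + Rapamycin, DUSP1 (log2 fold change -0.96, adjusted p = 2.36e-05) and FKBP5 (-0.39, adjusted p = 0.00529) were lowered and ERRFI1 was raised (0.34, adjusted p = 0.0277, edgeR for all), with a median of -0.11. Of all genes tested there, 3.73% were lowered and 3.01% were raised. With all 9 libraries in a single fit 0 were raised and 1 was lowered, and ERRFI1 lost its call in 5 of the 6 fits that left out a library, all but the fit without VPA + Rapamycin replicate 1. Against vehicle, VPA + Rapamycin raised NR3C1 (1.55) and KLF9 (1.02) and lowered DUSP1 (-0.76 on the log2 scale), with a median of 0.16. Of all genes tested there, 9.81% were raised and 9.22% were lowered. Without VPA + Rapamycin replicate 2 the count raised was 1, and the count lowered was 0 without VPA + Rapamycin replicate 1 and 2 without vehicle replicate 3.

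Of 14 other metallothionein loci, 5 had a row (MT1A, MT1H, MT1L, MT1XP1 and MT1P1), with summed levels of 12.0 to 12.7 scaled read counts in vehicle, 9.87 to 25.3 in VPA and 10.6 to 23.6 in VPA + Rapamycin. Most of these reads in VPA were in the processed pseudogene MT1P1, which lies within FANCC on the same strand, a gene with a mean of 752 read counts.

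Among the 13386 genes with a mean of at least 50 scaled read counts, those whose log2 levels over the 9 libraries were most like MT2A were DNTTIP1 (Pearson r = 0.987), SALL1 (0.970) and SPRED3 (0.966). For MT1X they were ZNF213-AS1 (0.922), IQCB1 (0.915) and ZSCAN16-AS1 (0.913), for MT1G they were CHRNB2 (0.936), IPO5P1 (0.932) and HSPBAP1 (0.921), and for MT1F they were GDPD2 (0.921), CYTH3 (0.918) and GOLM1 (0.916). All values come from the same 9 libraries and share their depth and conditions, so they describe these libraries only. Between the genes of the system, r was 0.81 for MT1F and MT1G and 0.72 for MT2A and SLC30A1, against -0.44 for MT2A and MT1X and -0.72 for MT1X and SLC30A1. Over the 9 libraries MT1X ran against the exporter and MT2A ran with it. These r values span the conditions and so include the shifts between them. Within a condition the order could differ. In VPA + Rapamycin, replicate 3 was lowest for MT2A (284 scaled read counts) and MT1X (31.2) and highest for SLC30A1 (1111). In VPA, replicate 2 was highest for MT2A (362) and MT1X (43.8) and lowest for SLC30A1 (869). In vehicle, replicate 3 was lowest for MT2A (88.9) and highest for SLC30A1 (633).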

How the data were processed

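Poly-A RNA of 9 libraries, 3 per condition, had been primed with random hexamers. The authors aligned reads and counted them per gene (HISAT2 2.0.5 and featureCounts 1.5.0-p3 in the submitters' processing notes; GRCh38), and deposited unnormalized counts in 1 table for each pair of conditions. Strand use and the annotation release are not given in the sources used here. A further 36 per-sample columns (FPKM and counts divided by size factors) and the authors' own fold changes and p-values, from DESeq2, were not used.

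Each pair was compared in its table with edgeR 4.0.16 in R 4.3.3 (TMM, filterByExpr, quasi-likelihood F test, Benjamini-Hochberg over all genes tested, threshold 0.05, no block), which gave the adjusted p values. The SE is the log2 fold change divided by the square root of F. Levels are counts scaled by TMM over the 9 libraries. p-values measure the spread between the pools sequenced.

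The genes, lists and rules were chosen with earlier results of these data known. Named were the 9 genes, up to 3 called genes a direction of each list by adjusted p, 3 non-members most like each tested metallothionein, and overlapping genes over 10% of a member's count. Marker lists served as a check of the tissue, and SOX10 was named after its values were seen. Alternatives were DESeq2 1.42.0, upper-quartile normalization, other filters, all 9 libraries together, a replicate block, library totals, and leaving out each library. The scripts were tested on simulated data.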

Additional observations from a re-analysis of the deposited data

How the results depend on the processing

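The alternatives kept the direction of MT2A, MT1X, MT1G and SLC30A1 wherever these genes were called. SLC30A1 kept its 2 calls and MT1X its call in all 12 alternatives of each comparison, with adjusted p of 5.66e-05 to 0.0222 and 9.51e-06 to 0.0258 for SLC30A1 and 0.00748 to 0.0466 for MT1X. The adjusted p of MT2A ran from 7.85e-06 to 0.0607 with VPA and from 5.80e-05 to 0.102 with VPA + Rapamycin, both against vehicle, and passed in 10 of 12 each. That of MT1G in VPA + Rapamycin against VPA ran from 8.70e-05 to 0.115 and passed in 11 of 12.

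With all 9 libraries in a single fit, 0 of the genes of the system were raised in VPA + Rapamycin against VPA, and over all genes 44 were raised and 69 were lowered, against 522 and 646 within the pair. Leaving out each library gave 1 to 2 raised genes of the system in VPA against vehicle. In VPA + Rapamycin against vehicle it gave 1 to 4, and the 4 came without vehicle replicate 2. These 4 were MT2A, SLC30A1, MT1G and MT1E (adjusted p = 0.0450 for MT1E, edgeR). MT1E was not among the 6 genes tested with all libraries of the pair. With no read in vehicle, it entered the test in only some of these fits, through its reads in VPA + Rapamycin. Over all genes, these fits gave 1791 to 3480 raised and 1599 to 3230 lowered, 175 to 533 and 297 to 670, and 761 to 2204 and 534 to 2110 in the order of the report. They gave log2 fold changes of -0.16 to 0.31 for MT1F and -0.89 to 0.061 for MT1G in VPA against vehicle and of -0.048 to 0.18 for MT2A in VPA + Rapamycin against VPA, of which none passed the test. Of 216 counts over the pathway lists from fits with all libraries of the pair, 32 moved by more than 1.5 times or to or from 0. With a library left out, 60 of 216 such counts did so. The 3 summed metallothionein levels moved by less than 1 SD under both other scalings.

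Libraries of the same replicate number share a code in the labels of all 3 conditions. The correlation of deviations between them was 0.06, 0.04 and -0.06 for vehicle and VPA, and 0.17 at most elsewhere. With 3 libraries a condition, these values cannot decide whether the libraries are paired. A block for replicate number gave MT2A an adjusted p of 0.00125 in VPA against vehicle, against 0.0155 without it (edgeR). With the replicate block, the genes of the system raised were 2, 1 and 2 and those lowered 1, 0 and 0 in the 3 comparisons, as without it, while SLC39A14 lost its call in VPA + Rapamycin against VPA. Depth limits MT1E, MT1M and MT3, and the cause of the changes between fits was not tested.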
